A study of Arabidopsis thaliana with 18 samples.

Results

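The response of sorted root cambium cells of Arabidopsis thaliana to the synthetic cytokinin BAP (benzylaminopurine) was measured on 6 of the 18 arrays of the series. The arrays were taken by their titles. The 3 arrays titled as cytokinin treated cambium came from seedlings grown for 6 days on standard medium and then for 48 h on medium with 100 nM BAP, and the 3 arrays titled as cambium came from untreated seedlings of the same age, 8 days. All 6 came from wild-type Columbia plants that express an endoplasmic reticulum-localized GFP from the ARR15 promoter, so that the controls carry the reporter too. Each root was divided into 3 segments, protoplasts were made from the basal segment, and GFP-positive protoplasts were collected by fluorescence-activated cell sorting. RNA went through a two-cycle amplification before hybridization to the Affymetrix ATH1 array. Because the gate used a promoter that responds to cytokinin, the treatment and the set of cells that passed the gate cannot be told apart, and neither can treatment and any batch of plants, for which no date is given. The labels record a transfer to new medium for the BAP seedlings only, so treatment and transfer cannot be told apart. In sorted populations of this kind, fewer cells of a type and less RNA per cell cannot be told apart either.

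Cytokinins are perceived by receptor histidine kinases, and a phosphorelay carries the signal to type-B response regulators in the nucleus. These switch on the type-A response regulators, ARR15 among them, which dampen the pathway. The vascular cambium is the ring of dividing cells that gives rise to secondary xylem and phloem, and in roots cytokinin is known to promote its activity.

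The deposited values are log2 signals made with GCRMA, and the statistics are those of limma with Benjamini-Hochberg adjustment over 13202 probe sets, fitted on the 16 ARR15::GFP arrays (a probe set was called at an adjusted p of 0.05). On these arrays 48.2% to 49.9% of the probe sets reached log2 5, and 28.8% to 31.5% lay within 0.1 of a lowest value of 2.17 that all arrays share. Arrays of the untreated cambium correlated with each other at 0.916 to 0.94 across probe sets, those of the BAP cambium at 0.963 to 0.97, and arrays of different groups at 0.864 to 0.906. Of 6 regulators of cambium or procambium with a probe set, all were well above log2 5 in untreated cambium, among them the receptor-like kinase gene MOL1 (10.29, 9.9 and 9.33) and CLE41 (9.0, 8.6 and 8.57), which encodes the peptide TDIF. A list of endodermis, cortex, epidermis and root cap markers had 4 genes with a probe set (JKD, PEP, EXPA7 and EXPA18). None reached log2 5 on an untreated array, and PEP did so on 1 BAP array, at 5.17. PEP was matched by its name, but its locus (AT4G26000) is that of PEPPER, an RNA-binding protein, and not a root tissue marker. No root cap marker was therefore measured. The summed linear signal of the 4 genes, PEP included, ranged from 33.4 to 49.4 without BAP and from 33.3 to 53.7 with it. Lists of other tissues were not all dark on the 3 untreated arrays. The mean log2 signal of 19 nuclear photosynthesis genes was 8.48, 6.39 and 7.3. At log2 5 or more were 1, 2 and 1 of 5 pericycle and lateral root primordium markers. For 6 xylem and lignin genes the counts were 2, 4 and 3, and for 2 phloem genes 1, 0 and 0. Whether other cell types were in the sort was not tested. The labelled cell type therefore rests on few markers here, and PXY, WOX4 and ANT were not analysed. A gene is said here to have a probe set only where the annotation used lists that gene alone for it. It lists no gene for 8730 of the 22746 probe sets other than controls.

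Between BAP and untreated cambium the signal of 1962 probe sets was called different, 14.9% of those tested. The signal of 1018 (7.71%) was higher and that of 944 (7.15%) lower, with a median change over all probe sets of 0.022 on the log2 scale. Without BAP replicate 1 the total was 1019, and without BAP replicate 3 it was 1138. The 3 BAP arrays all lay above the 3 untreated arrays at 20.2% of probe sets and all below them at 16.5%. Counts of list members below are to be read beside 7.71% higher and 7.15% lower over all probe sets, and no list was tested as a set. Only 175 of the called probe sets carry a gene symbol other than a locus code in the annotation used here.

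The annotation used here gives 2 type-A response regulators a probe set of their own, and other members of the family were not analysed. Both were called higher, beside 7.71% over all probe sets, RR16 at a level close to the limit of measurement. ARR15, whose promoter drives the sorting reporter, measured 2.52, 2.51 and 2.96 in untreated cambium and 6.56, 6.37 and 6.83 after BAP, at least 3.0-fold higher (adjusted p = 2.35e-05). RR16, also named ARR16, measured 2.54, 2.2 and 2.2 without BAP and 5.37, 4.61 and 5.1 with it, at least 1.02-fold higher against the level of log2 5 (adjusted p = 0.000124). With values below log2 5 raised to 5, ARR15 was still called and RR16 was not (adjusted p = 0.71). No array of either gene reached log2 5 without BAP, so ARR15 transcript was near the floor in the untreated cells although they were sorted on its promoter, and the groups did not overlap. Of the 2 cytokinin N-glucosyltransferases, which inactivate the hormone, neither passed the test. UGT76C2 measured 6.58, 6.81 and 6.08 without BAP and 6.59, 6.9 and 7.08 with it (adjusted p = 0.427), and UGT76C1 gave an adjusted p of 0.464.

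Several of the 15 largest named increases encode proteins of cell division. AUR1, an Aurora kinase of the mitotic spindle, rose from 6.42, 4.83 and 6.25 to 8.99, 8.53 and 8.51, a 7.19-fold increase (SE 0.39 on the log2 scale, adjusted p = 0.000284). UBC20, a ubiquitin-conjugating enzyme of the class that acts on mitotic cyclins in other organisms, rose from 8.75, 7.88 and 8.9 to 10.68, 11.0 and 10.78 (log2 change 2.31, SE 0.33). In both genes the untreated replicate 2 was the lowest array and the 3 BAP arrays lay close together.

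KINESIN-12B, a motor of the phragmoplast that builds the new cell plate, measured 5.62, 2.87 and 4.17 without BAP, with 1 of 3 arrays at log2 5, and 7.41, 7.39 and 7.15 with it (log2 change 3.09, adjusted p = 0.0031). FU, the plant homologue of the FUSED kinase, which is needed for cytokinesis, went from 7.19, 6.15 and 5.78 to 8.45, 8.74 and 8.68 (log2 change 2.25, adjusted p = 0.00381). TOPII, the DNA topoisomerase II that untangles chromosomes, went from 7.29, 5.58 and 6.11 to 8.53, 8.51 and 8.13 (log2 change 2.06, adjusted p = 0.00768). The calls of these 5 genes held with any 1 of the 6 cambium arrays left out.

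**Figure D1:**
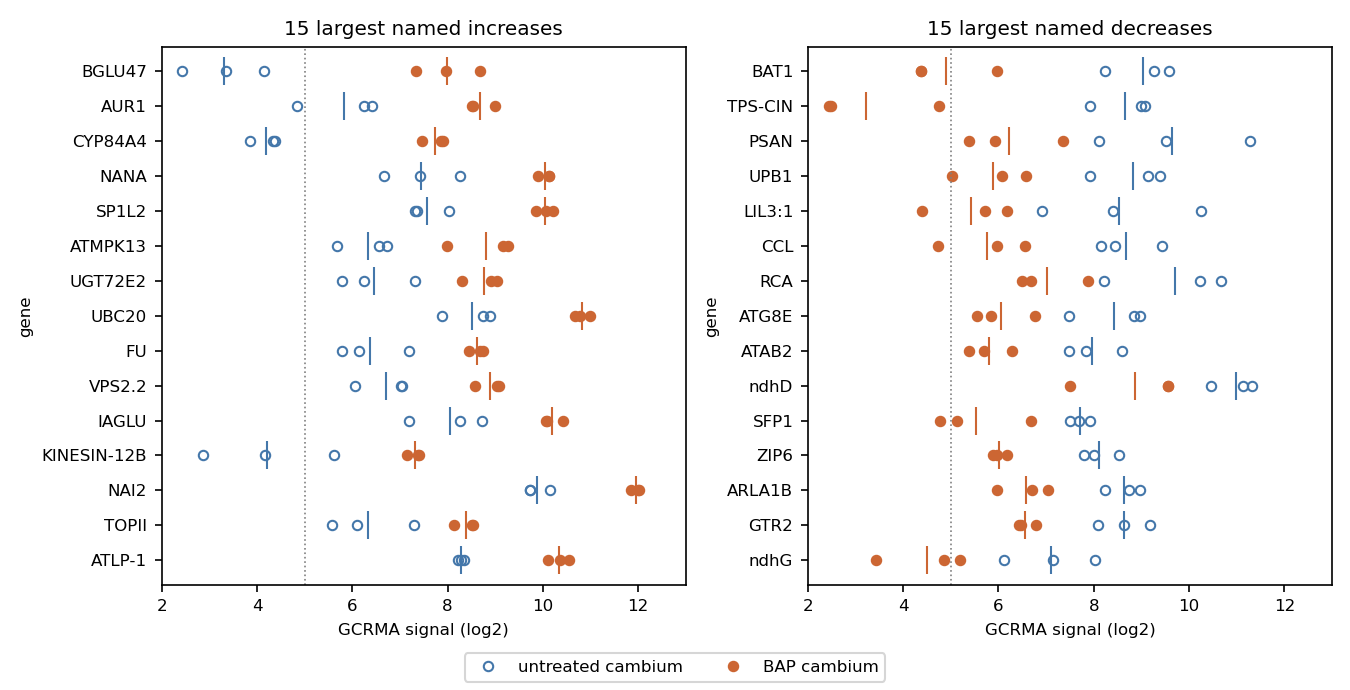
GCRMA signal on the log2 scale (horizontal axis) of the 15 largest named increases (left) and decreases (right) in cambium; open points are the 3 untreated arrays, filled points the 3 BAP arrays, vertical ticks the group means and the dotted line log2 5. In each of the 30 genes the points of the groups do not overlap; BGLU47 and CYP84A4 lay below log2 5 on every untreated array and TPS-CIN on every BAP array.

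Across the list of mitosis and cytokinesis genes, 5 of the 8 kept rose and none fell, with a median log2 change of 1.48, beside 7.71% higher and a median of 0.022 over all probe sets. BUB3.1, a spindle checkpoint protein, rose from 8.23, 7.11 and 7.99 to 9.63, 9.72 and 9.49 (adjusted p = 0.00122). AUR2 rose by 2.12, and the chromatin proteins 3xHMG-box2 and 3xHMG-box1, which bind chromosomes in mitosis, by 1.72 and by 1.23 on the log2 scale. These 3 calls depended on single arrays: that of AUR2 was lost without any array other than untreated replicate 3 (adjusted p up to 0.101), that of 3xHMG-box2 without untreated replicate 2, BAP replicate 1 or BAP replicate 2 (up to 0.123), and that of 3xHMG-box1 without any array other than BAP replicate 2 (up to 0.107). The list held between 2 and 4 calls when an array was left out, with 2 without untreated replicate 2 and 2 without BAP replicate 1, 3 without untreated replicate 1, BAP replicate 2 or BAP replicate 3, and 4 without untreated replicate 3. The third Aurora gene, AUR3, did not pass the test (log2 change -0.01, adjusted p = 0.998), with 4.36, 5.03 and 6.18 against 5.52, 4.64 and 5.38.

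Both replication genes kept were higher, beside 7.71% over all probe sets. PRL, the MCM7 subunit of the replicative helicase, rose from 6.93, 6.29 and 5.51 to 8.22, 7.72 and 7.84 (log2 change 1.68, adjusted p = 0.00459), and POLA3, a DNA primase subunit, from 6.22, 6.29 and 6.76 to 7.25, 7.05 and 7.61 (adjusted p = 0.0391). The POLA3 call was lost without untreated replicate 1 or 2 or BAP replicate 1 or 3 (adjusted p up to 0.151). Histone H2B genes, of a list added after results were seen, moved with them: HTB2 rose by 1.64, from 6.49, 6.4 and 6.43 to 8.5, 7.93 and 7.81, and HTB1 by 1.24, from 8.88, 8.81 and 9.14 to 10.22, 10.24 and 10.1. HIS1-3, a linker histone known from drought and abscisic acid responses, measured 5.19, 7.17 and 5.47 without BAP and 3.52, 5.13 and 2.94 with it, a fall of 2.08 whose call was lost without untreated replicate 2, BAP replicate 1 or BAP replicate 3 (adjusted p up to 0.134). HTB4 rose by 0.75 (11.92, 11.22 and 11.91 against 12.52, 12.38 and 12.39, adjusted p = 0.0405), a call lost without untreated replicate 2 or any BAP array (up to 0.147) and in 8 of 13 other settings. In all, 3 of the 6 histone genes kept were called higher and 1 lower, beside 7.71% and 7.15% over all probe sets. Near-identical histone and tubulin genes can share probes, and no test for this was made.

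Of 12 tubulin and microtubule genes kept, 2 rose and 1 fell, beside 7.71% and 7.15% over all probe sets. TUB7, a beta-tubulin, rose from 9.07, 8.65 and 8.98 to 10.26, 10.65 and 10.35 (log2 change 1.52, adjusted p = 0.00259), and every BAP array was above every untreated one. SP1L2, a SPIRAL1-like microtubule protein, measured 7.35, 8.02 and 7.31 without BAP and 10.07, 9.85 and 10.22 with it. Its adjusted p was 0.0329, and the call was lost without any array other than untreated replicate 2 (up to 0.093). SP1L4, of the same family, fell by 1.19 (7.12, 7.3 and 7.29 against 5.88, 6.07 and 6.2), a call lost without untreated replicate 2 or 3 or BAP replicate 1 or 2 (up to 0.0844).

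**Figure D2:**
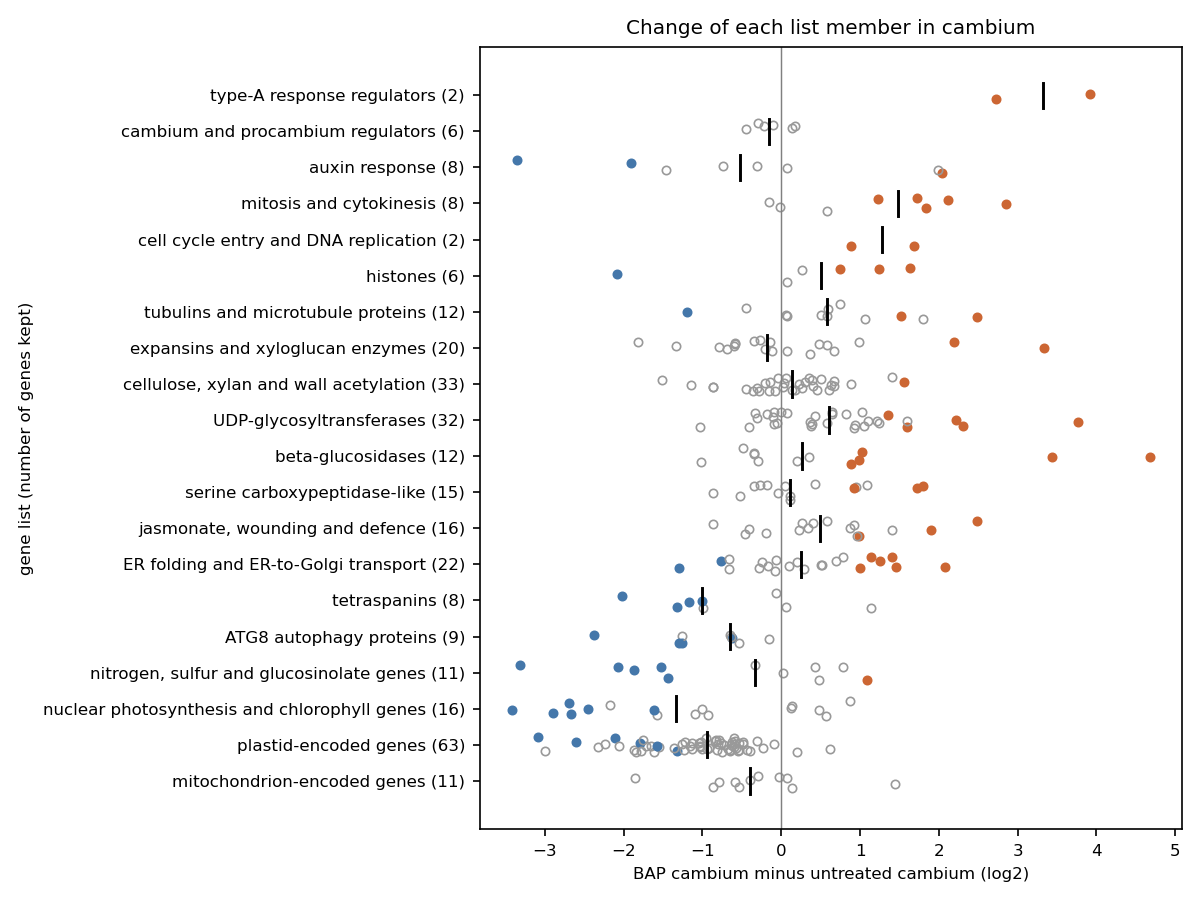
Log2 change with BAP in cambium (horizontal axis) of every kept member of 20 gene lists; filled orange points rose and filled blue points fell at an adjusted p of 0.05, open grey points did not pass, and black bars are list medians. Of the kept members, both type-A response regulators lie to the right, no cambium regulator passed, and 61 of 63 plastid-encoded genes lie below 0.

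Genes of glucosides and of glucose transfer were among the increases too. BGLU47, a beta-glucosidase of a class active on monolignol glucosides, measured 4.15, 2.43 and 3.35 without BAP and 7.96, 8.68 and 7.33 with it, at least 7.95-fold higher (adjusted p = 2.47e-05). UGT72E2, which glucosylates the lignin precursors coniferyl and sinapyl alcohol, rose from 5.79, 7.31 and 6.25 to 8.92, 8.31 and 9.04 (log2 change 2.31, adjusted p = 0.0112). UGT84A4, of the family that makes phenolic glucose esters, went from 2.45, 2.45 and 2.88 to 6.43, 6.44 and 6.18, at least 2.55-fold higher (adjusted p = 0.000409). All untreated arrays of BGLU47 and UGT84A4 were below log2 5 and all BAP arrays above it.

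Among the 32 UDP-glycosyltransferases kept, 5 were called higher and none lower, beside 7.71% and 7.15% over all probe sets, with a median change of 0.61. The other 3 were GT72B1 (log2 change 1.36), UGT71B1 (1.59) and UGT72E3, which stayed below log2 5 on all 6 arrays and so has no size, and was not called with values below log2 5 raised to 5. The GT72B1 call was lost without untreated replicate 1 or 3 or BAP replicate 2 or 3 (adjusted p up to 0.0923), the UGT71B1 call without untreated replicate 2, BAP replicate 1 or BAP replicate 3 (up to 0.0884), and the UGT72E3 call without untreated replicate 1 or 3 or BAP replicate 1 or 3 (up to 0.069). The list held 3 calls without untreated replicate 1, untreated replicate 3 or BAP replicate 1 and 2 without BAP replicate 3. IAGLU, which esterifies the auxin indole-3-acetic acid to glucose, measured 8.26, 8.72 and 7.19 without BAP and 10.06, 10.09 and 10.43 with it (adjusted p = 0.0268, lost without any array other than untreated replicate 2, up to 0.107). CYP84A4, a cytochrome P450 of a pathway that branches from phenylpropanoids, rose at least 6.69-fold, from 4.33, 4.37 and 3.86 to 7.46, 7.87 and 7.9 (adjusted p = 0.000632).

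Of 12 beta-glucosidases kept, a list added after results were seen, 5 rose and none fell, beside 7.71% and 7.15% over all probe sets. BGLU28 lay at the floor of 2.17 on the 3 untreated arrays and at 3.81, 6.59 and 6.39 after BAP, at least 1.51-fold higher (adjusted p = 0.000951), with BAP replicate 1 below log2 5. BGLU25 and BGLU15 rose by 1.02 and by 0.99, and BGLU16 by 0.88, the last a call lost without untreated replicate 1, BAP replicate 1 or BAP replicate 3 (adjusted p up to 0.0747). NAI2, a protein of the ER bodies in which some Brassicaceae store beta-glucosidases, rose from 9.74, 10.15 and 9.74 to 11.86, 11.99 and 12.02 (log2 change 2.08, adjusted p = 0.00125).

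Other named increases covered proteases, defence and membrane traffic. NANA, an aspartic protease of the chloroplast, rose 6.04-fold from 6.67, 7.42 and 8.26 to 10.12, 10.12 and 9.89 (adjusted p = 0.00174). ATMPK13, a mitogen-activated protein kinase, rose from 6.72, 5.69 and 6.56 to 9.27, 9.17 and 7.99 (log2 change 2.49). ATLP-1, a thaumatin-like protein, rose from 8.21, 8.34 and 8.29 to 10.11, 10.54 and 10.36 (log2 change 2.05, SE 0.24, adjusted p = 0.000102), the smallest standard error among the 15 increases plotted. VPS2.2, a subunit of the ESCRT-III complex that remodels membranes, rose from 7.03, 6.05 and 7.04 to 9.03, 9.07 and 8.57 (log2 change 2.19).

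Of the 16 jasmonate, wounding and defence genes kept, 3 rose (ATMPK13, WRKY6 and WRKY20) and none fell, beside 7.71% and 7.15% over all probe sets. The transcription factor WRKY6 rose from 6.21, 7.27 and 6.23 to 7.88, 9.11 and 8.4 (adjusted p = 0.00896), and WRKY20 by 0.99, a call lost without BAP replicate 2 or 3 (adjusted p up to 0.0586). In a list of serine carboxypeptidase-like genes added after results were seen, 3 of 15 rose, beside 7.71% over all probe sets. Of these, scpl29 rose by 1.72, scpl35 by 1.8 and scpl26 by 0.93, the last lost without 2 of the 6 arrays (up to 0.0824).

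Genes listed by a locus code, with another name in the reference table, rose by less than the 15 above. AT5G48570, the peptidyl-prolyl isomerase FKBP65 or ROF2, rose from 8.89, 8.49 and 9.65 to 10.68, 11.02 and 11.26 (log2 change 1.98, adjusted p = 0.00103). AT1G13030 is coilin, the scaffold of nuclear Cajal bodies, and rose by 1.48 with a call that held without any 1 array. The calmodulin-like CML39 (AT1G76640, log2 change 1.58), PHL (AT1G72390, 1.44), a regulator of flowering time, and NATA2 (AT2G39020, 1.29), an acetyltransferase, each lost their call without 1 of at least 3 different arrays. Untreated replicate 1, BAP replicate 1 or BAP replicate 2 was the array in the first, untreated replicate 3, BAP replicate 2 or BAP replicate 3 in the second and any but untreated replicate 2 in the third, at adjusted p up to 0.0791, 0.0951 and 0.164. Larger than all of these were 2 increases of genes with a locus code only, named after their values were seen. AT2G33850 went from 3.83, 4.85 and 3.89 to 10.04, 10.97 and 9.99, at least 40.3-fold higher, and AT5G44400 from 7.41, 7.61 and 7.17 to 11.76, 12.15 and 11.83.

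The named decrease that ranked first among genes with a symbol was that of BAT1. BAT1, an acyltransferase that lowers active brassinosteroids, fell from 9.58, 9.27 and 8.24 to 5.96, 4.37 and 4.37, a 17.5-fold lower mean with 1 of 3 BAP arrays at log2 5 (SE 0.47 on the log2 scale, adjusted p = 8.41e-05). TPS-CIN, the synthase of the root monoterpene cineole, measured 8.99, 9.07 and 7.92 without BAP and 2.49, 4.75 and 2.44 with it, at least 12.6-fold lower (adjusted p = 4.29e-05). A near-identical neighbouring gene of TPS-CIN is known, and its signal cannot be separated here. UPB1, a transcription factor that controls peroxidases where root cells stop dividing, fell from 7.93, 9.14 and 9.4 to 6.57, 5.03 and 6.08 (log2 change -2.93, adjusted p = 0.00377). Of 23 peroxidase and redox genes kept, UPB1 and AT2G41480, a class III peroxidase, were the 2 that fell, beside 7.15% over all probe sets. AT2G41480 went from 5.96, 5.04 and 7.11 to 4.67, 4.51 and 4.7, at least 2.05-fold lower (adjusted p = 0.0301), and its call was lost without any array other than untreated replicate 2 (up to 0.112) and with values below log2 5 raised to 5 (0.0666).

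The largest log2 change of all probe sets was that of AT3G05730, known here by its locus code only and named after its values were seen. It measured 9.51, 10.95 and 13.55 in untreated cambium and 2.17, the floor, on the 3 BAP arrays, at least 80.9-fold lower (adjusted p = 1.76e-06). AT4G30450 fell from 10.47, 10.63 and 10.08 to 5.52, 5.51 and 5.47 (log2 change -4.89, adjusted p = 1.76e-06). The untreated arrays of the first gene spread over more than 4 log2 units, while those of the second differed by less than 1.

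Other named decreases were spread over nutrient transport, autophagy and signalling. ZIP6, a zinc transporter, fell from 8.52, 8.0 and 7.79 to 6.18, 5.97 and 5.89 (log2 change -2.09, adjusted p = 0.00307), and the vacuolar sugar transporter SWEET16 from 8.25, 7.97 and 8.34 to 6.31, 6.54 and 6.11 (log2 change -1.86, adjusted p = 0.000419). Both were called without any 1 array. They were the 2 that fell among the 6 genes kept of the nutrient and water transport list, beside 7.15% over all probe sets. That list includes FRO1 (AT5G67590), which was matched by its name and encodes a mitochondrial protein, not a transporter. CCL (CCR-LIKE) fell from 8.45, 9.43 and 8.15 to 4.74, 6.56 and 5.96 (log2 change -2.92, adjusted p = 0.00528).

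ARLA1B, an ARF-like GTPase, fell by 2.08, a call lost without BAP replicate 3 (adjusted p = 0.0625). SFP1, a sugar porter, fell by 2.18 at an adjusted p of 0.0499, lost without any array other than BAP replicate 2 (up to 0.176). GTR2, a glucosinolate transporter, fell by 2.07 from 8.63, 8.09 and 9.19 to 6.44, 6.78 and 6.47, lost without any array other than untreated replicate 2 (up to 0.107).

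Of the 11 genes kept in the list of nitrogen, sulfur and glucosinolate genes, 5 fell and 1 rose, beside 7.15% and 7.71% over all probe sets. The list includes APK1A (AT1G07570), a protein kinase gene matched through the name APK1, which was not called. APS4, an ATP sulfurylase of sulfate assimilation, fell from 11.47, 11.47 and 11.37 to 9.72, 10.31 and 9.68 (adjusted p = 0.000798), while its paralogue APS3 rose from 10.61, 10.43 and 10.06 to 11.09, 11.66 and 11.63 (adjusted p = 0.0312, lost without untreated replicate 2 or 3 or BAP replicate 2 or 3, up to 0.107). The transporters AT2G26690 (NPF6.2) and AT1G59740 (NPF4.3), of the nitrate and peptide transporter family, fell by 1.87 and by 1.44. The NPF4.3 call was lost without untreated replicate 2, BAP replicate 1 or BAP replicate 3 (up to 0.0788). BCAT4, which starts the methionine chain elongation of glucosinolate synthesis, measured 10.47, 9.83 and 11.72 without BAP and 6.1, 9.93 and 6.06 with it. Its groups overlapped through BAP replicate 2, and the call (adjusted p = 0.0298) was lost without untreated replicate 1 or 3 or BAP replicate 1 or 3 (up to 0.129). With 1 array left out, the list held 2 to 4 decreases, with 2 without BAP replicate 1 or 3 and 3 without untreated replicate 1 or 3.

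The remaining named decreases of genes with a locus code were AT4G08160 (ATXYN3, a xylanase-like protein, log2 change -1.88), AT5G61590 (DEWAX, a repressor of wax synthesis, -1.5) and AT1G52220 (CURT1C, a thylakoid membrane protein, -1.87). None of these calls held with every array left out in turn. That of AT4G08160 was lost without any array other than BAP replicate 3 (adjusted p up to 0.162), that of AT5G61590 without any other than BAP replicate 2 (up to 0.157) and that of AT1G52220 without untreated replicate 1 or 3 or BAP replicate 1 or 3 (up to 0.13).

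Nuclear genes of photosynthesis had a negative median change and a wide spread between arrays. Of 16 kept, 6 fell and none rose, beside 7.15% and 7.71% over all probe sets. The median change was -1.33, beside 0.022 over all probe sets. PSAN, a subunit of photosystem I, fell from 11.28, 8.12 and 9.52 to 5.38, 7.36 and 5.93 (adjusted p = 0.00452), and RCA, the activase of Rubisco, from 10.66, 8.22 and 10.23 to 6.49, 7.87 and 6.68 (adjusted p = 0.0183). In both genes untreated replicate 2 was the lowest untreated array and BAP replicate 2 the highest BAP array. The RCA call was lost without untreated replicate 1 or 3 or BAP replicate 1 or 3 (adjusted p up to 0.077), and of the 6 decreases PSAN's was the one call kept with each array left out in turn. Fitted on the 6 cambium arrays alone, PSAN had an adjusted p of 0.0507.

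The other 4 were PSBW of photosystem II, the Calvin cycle enzymes SBPASE and PRK, and the photorespiratory hydroxypyruvate reductase HPR, at log2 changes of -1.61, -2.67, -2.89 and -2.45. PSBW, SBPASE and PRK each lost their call without untreated replicate 1 or 3 or BAP replicate 1 or 3 (adjusted p up to 0.136, 0.192 and 0.169), and HPR without untreated replicate 1, BAP replicate 1 or BAP replicate 3 (up to 0.0608). The mean log2 signal of the 19 list genes with a probe set was 8.48, 6.39 and 7.3 on the untreated arrays and 5.88, 6.91 and 5.87 on the BAP arrays, so the groups overlap. Decreases numbered 1 without untreated replicate 1, BAP replicate 1 or BAP replicate 3, 2 without untreated replicate 3, 7 without BAP replicate 2 and 8 without untreated replicate 2. The part that this spread has in the result was not tested.

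**Figure D3:**
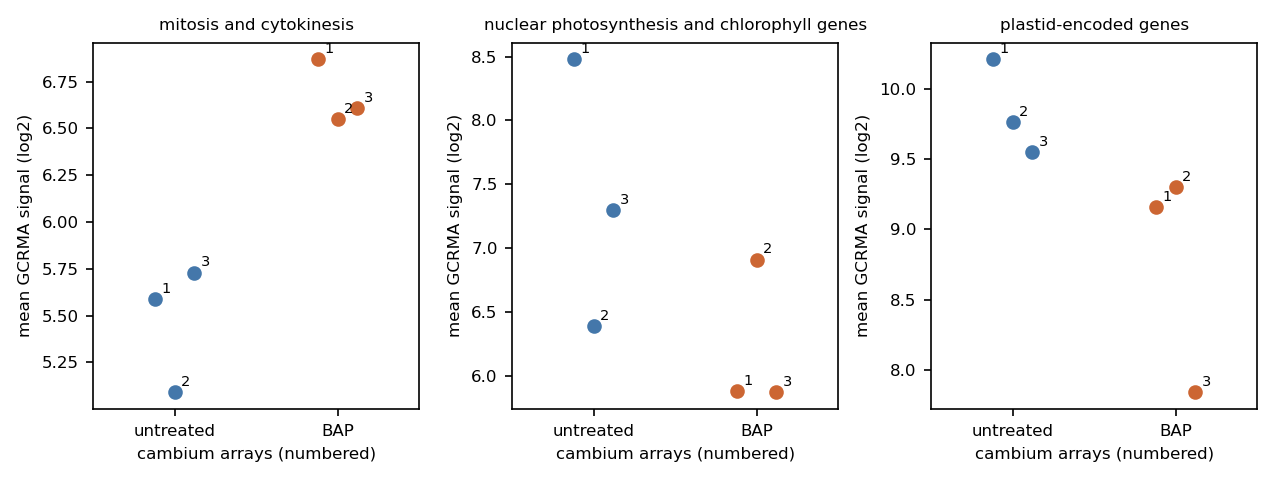
Mean GCRMA signal on the log2 scale (vertical axes, which differ between panels and do not start at 0) of 3 gene lists on each cambium array, numbered by replicate. The mitosis and cytokinesis list separates the groups (5.09 to 5.73 without BAP, 6.55 to 6.87 with it), the nuclear photosynthesis list does not, and the plastid-encoded list separates them with BAP replicate 3 lowest at 7.84.

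LIL3:1, which anchors an enzyme of chlorophyll synthesis, fell from 10.26, 6.92 and 8.41 to 5.71, 6.17 and 4.4 (log2 change -3.1, adjusted p = 0.00587), and ATAB2, which activates translation of photosystem mRNAs in the plastid, from 8.6, 7.48 and 7.83 to 5.39, 6.29 and 5.7 (log2 change -2.18, adjusted p = 0.0011). Both calls held without any 1 array. CYTC6A, a cytochrome of the thylakoid lumen, lay at 6.23, 6.34 and 5.55 without BAP and at 2.62, 3.05 and 3.5 with it, at least 2.05-fold lower (adjusted p = 6.6e-05). MRL7-L, a regulator of plastid transcription, fell at least 2.09-fold, from 6.92, 6.07 and 5.2 to 3.56, 4.31 and 3.97, a call lost without untreated replicate 1, BAP replicate 1 or BAP replicate 3 (adjusted p up to 0.0803).

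Of 63 plastid-encoded genes kept, 61 had a negative change, 6 fell at the adjusted p, beside 7.15% over all probe sets, none rose, and the median was -0.94. ndhD, a subunit of the plastid NDH complex, fell from 11.33, 11.14 and 10.46 to 9.55, 9.55 and 7.51 (adjusted p = 0.00984). petG, of the cytochrome b6f complex, measured 6.1, 6.52 and 6.26 without BAP and 3.31, 3.34 and 2.99 with it, at least 2.45-fold lower (adjusted p = 0.00058). ndhG measured 7.15, 6.12 and 8.03 without BAP and 5.19, 4.86 and 3.44 with it, a call lost without untreated replicate 3 or BAP replicate 3 (adjusted p up to 0.0884).

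The other 3 were ndhI, atpI of the ATP synthase and psbL of photosystem II, at log2 changes of -1.32, -1.79 and -1.58, none of which held its call without every array (adjusted p up to 0.154, 0.0503 and 0.0804). The mean log2 signal of the 69 plastid-encoded genes with a probe set was 10.21, 9.76 and 9.55 without BAP and 9.16, 9.3 and 7.84 with it. Decreases numbered 14 without BAP replicate 2, 9 without untreated replicate 2, 4 without untreated replicate 1 and 3 without BAP replicate 3. Of 11 mitochondrion-encoded genes kept, a list added after results were seen, limma called none, with 3 at an unadjusted p under 0.05. What the shared level of plastid transcripts on an array adds to the single genes was not tested.

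ATG8 proteins, which coat the autophagosome membrane, were described as a list added after results were seen. All 9 members kept had a negative change, and 4 fell, beside 7.15% lower and a median change of 0.022 over all probe sets. ATG8E fell from 7.47, 8.85 and 8.96 to 5.84, 6.77 and 5.54 (log2 change -2.38, adjusted p = 0.00181), and ATG8F from 11.46, 11.59 and 11.19 to 9.84, 10.38 and 10.24 (adjusted p = 0.0012). ATG8D fell by 1.3, lost without untreated replicate 3 (adjusted p = 0.0502), and APG8H by 0.63, lost without any 1 array (0.0541 to 0.144), and the list held 2 decreases without untreated replicate 3. Tetraspanins, membrane proteins of cell surface and vesicle domains, were likewise a later list. Of 8 kept, 4 fell and none rose, beside 7.15% and 7.71% over all probe sets. TET8 fell from 12.28, 12.63 and 12.55 to 11.23, 11.75 and 11.45 and TET3 from 10.39, 9.4 and 10.2 to 8.64, 8.79 and 8.62 (adjusted p = 0.00161 and 0.00424). The calls of TET5 and TET6 were each lost without 4 of the 6 arrays (up to 0.126 and 0.184): untreated replicate 1 or 3 or BAP replicate 1 or 2 for TET5, and untreated replicate 1 or 2 or BAP replicate 2 or 3 for TET6. Both were lost, leaving 2 decreases, without untreated replicate 1 or BAP replicate 2.

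Auxin response genes moved in both directions. Of 8 kept, GH3.17 rose and LBD16 and WES1 fell, beside 7.71% and 7.15% over all probe sets. GH3.17, which conjugates auxin to glutamate, rose from 4.56, 6.04 and 5.7 to 7.47, 7.54 and 7.42, with 2 of 3 untreated arrays at log2 5 (log2 change 2.04, adjusted p = 0.00792). WES1, also named GH3.5, fell from 7.61, 7.17 and 7.75 to 5.23, 5.43 and 6.14 (log2 change -1.91, adjusted p = 0.0143, lost without BAP replicate 1 at 0.0643). LBD16, a transcription factor of lateral root founder cells, measured 5.85, 6.54 and 6.82 without BAP and 2.85, 3.47 and 2.83 with it, at least 2.64-fold lower (adjusted p = 0.000239).

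LBD16 also belongs to the list of pericycle and lateral root primordium markers. Of these, 3 were kept and 2 fell, beside 7.15% over all probe sets. The other was BBM, an AP2-type factor of primordia, at 3.04, 6.26 and 4.75 without BAP, where only replicate 2 reached log2 5, and 2.49, 2.51 and 2.86 with it (adjusted p = 0.0252). Its call was lost without any array other than untreated replicate 1 (up to 0.0812). The summed linear signal of the 5 markers with a probe set was 79.9 to 184.9 without BAP and 27.2 to 31.0 with it, and LBD29 and PUCHI stayed below log2 5 on all 6 arrays. Fewer primordium cells in the sort and less transcript per cell cannot be told apart in these values.

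None of the 6 regulators of cambium and procambium with a probe set passed the test in cambium, and none had an unadjusted p under 0.05. MOL1 measured 10.29, 9.9 and 9.33 without BAP and 9.85, 9.63 and 9.15 with it (log2 change -0.29, SE 0.27). The TDIF genes CLE41 and CLE44 gave -0.1 (SE 0.32) and 0.17 (SE 0.48), PTL, a trihelix transcription factor, 0.14 (SE 0.26), PHV, a class III HD-ZIP factor, -0.22 (SE 0.35), and LHW, a bHLH factor of vascular divisions, -0.44 (SE 0.22). Every one of these genes stayed above log2 6 on all 6 arrays.

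Of 20 expansin and xyloglucan enzyme genes kept, 2 were called higher, beside 7.71% over all probe sets: XTH33, from 3.12, 3.11 and 3.24 to 5.32, 5.48 and 5.23 (at least 1.27-fold, adjusted p = 0.0127), and EXPA8, from 2.63, 2.9 and 2.72 to 5.88, 6.18 and 6.22 (at least 2.14-fold, adjusted p = 0.0301). The EXPA8 call, with a standard error of 0.96 on the log2 scale, was lost without any 1 array (0.0569 to 0.0838). Neither gene was called with values below log2 5 raised to 5 (adjusted p = 0.237 and 0.088). Of 33 genes of cellulose, xylan and wall acetylation kept, only TBL45 rose (log2 change 1.56, beside 7.71% called higher over all probe sets), and its call was lost without any array other than untreated replicate 1 (up to 0.0937). Of the 4 xylem and lignin genes kept, limma called none, with 1 at an unadjusted p under 0.05, and the median change was 0.02. No flavonoid gene of 4 passed either, with 2 at an unadjusted p under 0.05.

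The response of cambium was then compared with that of GFP-positive cells of the middle segment (transition cambium, 2 untreated and 3 BAP arrays) and of the apical segment (procambium, 2 untreated and 3 BAP arrays), of the same genotype, age and treatment. No array is shared between the zones. Each root was cut into all 3 segments, so same-numbered arrays of the zones may come from the same seedlings. That was not tested, and the fit treats the arrays as independent. In transition cambium 1241 probe sets were called (9.4%), 621 higher (4.7%) and 620 lower (4.7%), and in procambium 1855 (14.1%), 1005 higher (7.61%) and 850 lower (6.44%). Of the 1018 increases of cambium, 352 were increases in transition cambium too, 34.6% of the cambium list and 56.7% of the other, and of the 944 decreases 313 were shared, 33.2% and 50.5%. With procambium 175 increases were shared (17.2% and 17.4%) and 179 decreases (19.0% and 21.1%). Across the 13202 probe sets the responses of cambium and transition cambium correlated at r = 0.594 and those of cambium and procambium at r = 0.261, a description over probe sets that are not independent.

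**Figure D4:**
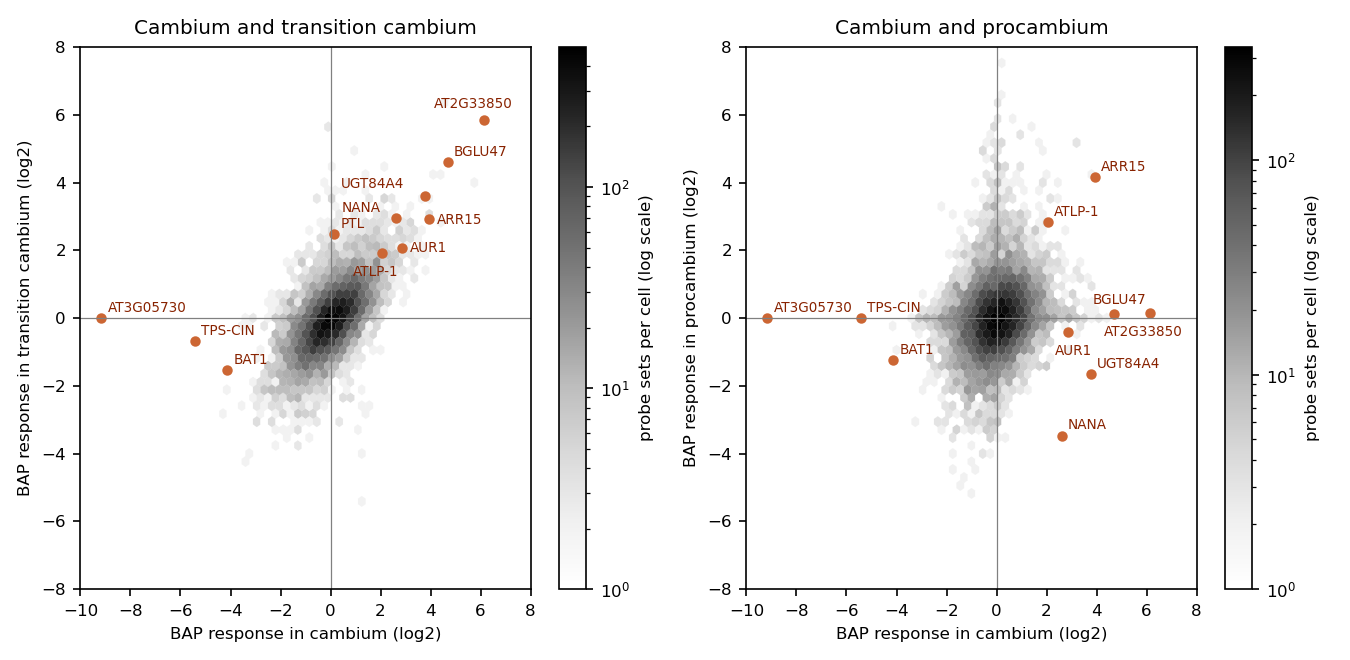
BAP response of each of 13202 probe sets in cambium (horizontal axis, log2) against that in transition cambium (left) and procambium (right); grey cells count probe sets on a log scale, and orange points are named genes. BGLU47 and UGT84A4 lie along the diagonal on the left (4.61 and 3.6 in transition cambium) and at or below 0 on the right (0.11 and -1.66), and TPS-CIN and AT3G05730 are far below 0 in cambium only.

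The difference between the responses was itself tested. Against transition cambium 49 probe sets differed (0.371%), 15 with a more positive (0.114%) and 34 with a more negative (0.258%) response in cambium. That total was 21 without untreated transition cambium replicate 1, 30 without its replicate 2, 32 without BAP cambium replicate 1 or 3 and 87 without BAP transition cambium replicate 3. Against procambium 1184 differed (8.97%), 507 positive (3.84%) and 677 negative (5.13%), with 741 without BAP cambium replicate 1 and 789 without BAP procambium replicate 3. Of the 1018 increases of cambium 9 differed from transition cambium and 274 from procambium, and of the 944 decreases 11 and 229.

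NANA moved in opposite directions. In procambium it measured 9.19 and 7.57 without BAP and 4.88, 5.15 and 4.71 with it (log2 change -3.47, adjusted p = 0.000301), while in transition cambium it rose as in cambium, from 6.18 and 6.3 to 8.98, 8.58 and 9.99. Its response in cambium exceeded that in procambium by 6.06 (SE 0.68, adjusted p = 0.000144). BGLU47 rose in transition cambium from 2.17 on both arrays to 6.65, 6.2 and 7.49, and stayed at or near the floor in procambium with and without BAP (difference of responses 4.57, adjusted p = 0.00114). UGT84A4 fell short of log2 5 on all BAP arrays of procambium (2.7, 4.94 and 4.26) and reached it on both untreated ones (6.02 and 5.23), the reverse of cambium (difference 5.41, adjusted p = 0.000965).

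AUR1 was already at 7.08 and 7.83 in untreated procambium and measured 7.32, 6.64 and 7.2 there after BAP, so its increase of 2.85 in cambium exceeded the response of procambium by 3.25 (adjusted p = 0.0033). In transition cambium it rose from 6.5 and 6.78 to 8.63, 8.44 and 9.07. BGLU28 stayed at 2.17 to 2.21 on every array of the other zones (difference from procambium 3.41, adjusted p = 0.0187), although this call was lost without untreated procambium replicate 1 or 2 (up to 0.0548). Its difference from transition cambium did not pass the test (adjusted p = 0.121). UGT72E3 (difference 3.4, adjusted p = 0.0277) was below log2 5 on all cambium arrays.

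TPS-CIN differed from both zones. In transition cambium it measured 6.66 and 8.41 without BAP and 7.11, 6.66 and 6.76 with it, and in procambium it was at the floor throughout. Its response in cambium was lower by 4.74 than in transition cambium (adjusted p = 0.0224) and by 5.43 than in procambium (adjusted p = 0.00147). The first call was lost without untreated cambium replicate 2, untreated transition cambium replicate 1, BAP cambium replicate 1 or 3, or BAP transition cambium replicate 1 (up to 0.156). AT3G05730 lay at 2.17 or 2.18 on all 10 arrays of the other zones, and its differences of -9.17 and -9.16 (adjusted p = 0.000758 and 0.000118) repeat that it was bright only on the 3 untreated cambium arrays.

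petG and CYTC6A were below log2 5 on every procambium array, with differences of -2.98 and -3.05 (adjusted p = 0.0148 and 0.00179), the first lost without untreated procambium replicate 2 (0.0529). CYTC6A fell in transition cambium as well, from 6.16 and 5.65 to 2.71, 2.7 and 2.66. For ROXY1, a glutaredoxin (difference from procambium -3.73), and MRL7-L (-2.94) the other zone was dim on every array, as ROXY1 was on all cambium arrays. With values below log2 5 raised to 5, neither difference was called (adjusted p = 1.0 and 0.143). SBT1.3, a subtilase, was the only gene with a symbol whose response was both called in cambium and more positive than in transition cambium (4.21, adjusted p = 0.0143). It measured 3.89, 5.06 and 2.95 against 6.08, 5.08 and 5.54 in cambium and 4.3 and 5.28 against 2.18 on 3 BAP arrays in transition cambium. Its call in cambium (adjusted p = 0.0327) was lost without untreated replicate 1 or 3 or BAP replicate 1 or 3 (up to 0.133), and its difference without untreated transition cambium replicate 2 (0.0828) or with values below log2 5 raised to 5 (0.501).

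Some genes that did not pass the test in cambium did so in other zones. PTL measured 4.79 and 5.42 in untreated transition cambium and 7.81, 7.34 and 7.58 with BAP, the latter slightly above its levels in cambium (6.91 to 7.2 over both treatments), and the response of cambium was lower by 2.33 (adjusted p = 0.0143, lost without untreated transition cambium replicate 1 at 0.102). CLE41 rose in procambium from 4.72 and 5.6 to 7.39, 6.24 and 6.55, and the response of cambium was lower by 1.67 (adjusted p = 0.0424, lost without any array other than untreated procambium replicate 2 or BAP procambium replicate 2, up to 0.184). RR16 rose in all zones, in procambium from 2.2 on both arrays to 6.6, 6.48 and 7.44, and by 1.92 less in cambium (adjusted p = 0.026, lost without untreated procambium replicate 1 or 2, BAP cambium replicate 2 or BAP procambium replicate 3, up to 0.0694). For ARR15 the responses of the 3 zones did not differ at the adjusted p, with 0.7 against transition cambium and 0.835 against procambium. Against log2 5 it was at least 3.0-fold higher in cambium, at least 1.9-fold in transition cambium and at least 3.7-fold in procambium.

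**Figure D5:**
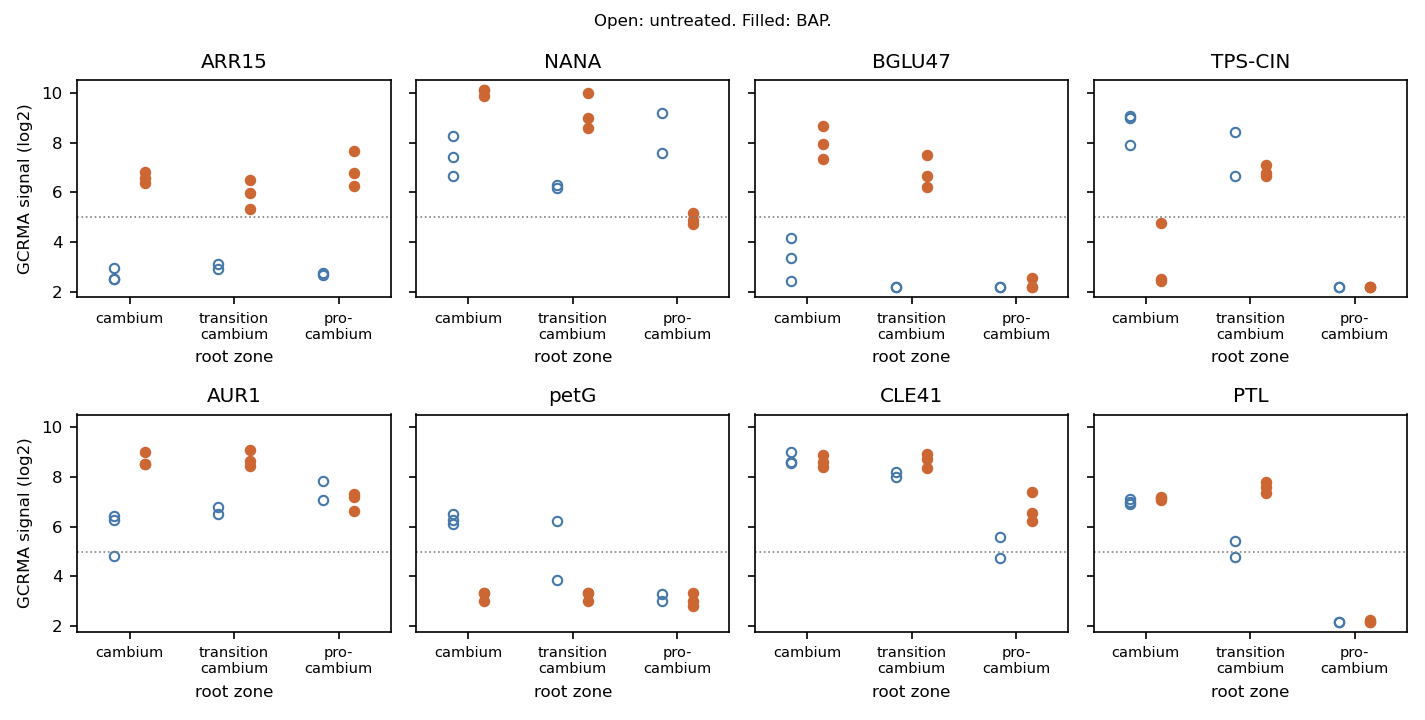
GCRMA signal on the log2 scale (vertical axis) of 8 genes on each array of the 3 root zones (horizontal axis); open points are untreated and filled points BAP arrays, and the dotted line is log2 5. ARR15 rises above the line in every zone, NANA rises in cambium and transition cambium and falls in procambium, TPS-CIN falls below the line in cambium alone, and CLE41 and PTL overlap or lie close between treatments in cambium.

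PDF2.1, a plant defensin, measured 11.12, 11.83 and 12.21 in untreated cambium and 11.3, 12.01 and 10.63 with BAP (adjusted p = 0.637). In transition cambium it rose from 7.5 and 7.46 to 12.01, 11.96 and 11.87, the range it already had in cambium, and the responses differed by -4.88 (adjusted p = 0.0133, lost without untreated transition cambium replicate 1 or 2, up to 0.0674). GH9B5, an endoglucanase, stayed below log2 5 in cambium and fell in both other zones, in procambium from 6.06 and 5.9 to 2.43, 2.95 and 2.29 (differences 3.72 and 3.68, adjusted p = 0.0185 and 0.00327). The first of these was lost without untreated transition cambium replicate 1 or BAP cambium replicate 3 (up to 0.135), and neither was called with values below log2 5 raised to 5 (0.604 and 0.163).

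Few probe sets were called in the same direction in all 3 zones, although most cambium calls had the same sign in the other zones. Of the increases of cambium, 94.8% had a positive change in transition cambium and 70.8% in procambium. Of the decreases, 91.2% and 67.2% had a negative change there. The number of probe sets called higher in all 3 zones was 99, and 85 were called lower in all 3, while 590 and 537 were called in cambium alone, which does not show that their responses differ. NAI2 changed by 2.08, 1.94 and 2.04 in cambium, transition cambium and procambium and ATLP-1 by 2.05, 1.91 and 2.83. SWEET16 changed by -1.86, -1.44 and -1.46, APS4 by -1.53, -1.32 and -1.95, and NPF6.2 (AT2G26690) by -1.87, -1.92 and -1.49. Each of these changes was called in its zone.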

How the data were processed

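RNA of sorted root cells was hybridized to Affymetrix ATH1 arrays: 3 untreated and 3 BAP arrays of cambium, 2 and 3 of transition cambium, 2 and 3 of procambium, and 2 arrays of ARR5::GFP cells, which entered only 1 alternative. The labels call the samples biological replicates. The values are as the authors deposited them, on a log2 scale, and the submitters' processing notes name GCRMA, with a version not given in the sources used here. GCRMA subtracts a probe-sequence-based background, normalizes by quantiles and presses dim probe sets to a common floor, so that differences near it are compressed or set by the floor. Scanner files were not used here, and precision is limited by the small number of arrays.

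From these values, limma 3.58.1 in R 4.3.3 was fitted to the 16 ARR15::GFP arrays as 6 groups (10 residual degrees of freedom, empirical Bayes with a mean trend), with Benjamini-Hochberg adjustment over 13202 of 22746 probe sets, those at log2 5 or more on at least 2 arrays. The 64 control probe sets were left out. Every fold change, standard error and adjusted p is from that fit unless another is named. Where all arrays of the dimmer group were below log2 5, the fold is the brighter mean over log2 5, given as a lower bound. The fit was tested on simulated data.

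Gene names came from the platform annotation, updated to RefSeq symbols of TAIR10.1 by locus. Of 22810 probe sets, 13513 have 1 gene, 503 several and 8730 none listed, and 13436 were matched to RefSeq. Only probe sets with 1 gene were named, 1 per gene (the brightest on average). The genes named were, among those with an adjusted p of 0.05 or less, a difference of at least 1 (values below log2 5 raised to 5) and no overlap between groups, the 15 largest increases and 15 largest decreases with a symbol, and 5 and 5 with only a locus code and another name. Added to these, without the conditions on difference and overlap, were up to 5 per direction from each comparison of zones with a symbol and also called in cambium, and members of gene lists. Members and lists were chosen with earlier results of these data known, and 11 of the 36 lists were added after results and gene names were seen. Members were matched by name, which brought in genes that share only a name with the one meant, such as PEP, FRO1, APK1A, SLY1 and ATCRT1. Of 386 list genes with a probe set, 269 were kept.

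Alternatives were fits on the 6 cambium or all 18 arrays, with a replicate block, other filters, centring, quantile normalization, a floor, no trend, robust moderation, array weights, a minimum change, and leaving out each array. Replicate numbers are shared by the groups. In cambium, deviations of same-numbered untreated and BAP arrays from their group means correlated at -0.0437, -0.1038 and 0.0507. The numbers were therefore not taken as pairs, and same-numbered arrays of different zones were not compared. Sequences and coordinates were not analysed here.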

Additional observations from a re-analysis of the deposited data

Results flagged for a closer look

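Each result here is a difference between the BAP response of cambium and that of another root zone, as a log2 difference with limma's adjusted p over all 13202 probe sets. Groups of 2 or 3 arrays are too small for a check of single outlying arrays. All comparisons with procambium use the same cambium arrays as those with transition cambium.

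Against procambium, the response of cambium was more positive for NANA (6.06), AT2G33850 (5.99, adjusted p = 9.05e-05), UGT84A4 (5.41), BGLU47 (4.57), AUR1 (3.25), AT1G76640 (2.96, adjusted p = 0.00811), GT72B1 (2.91, adjusted p = 0.00525), scpl35 (2.43, adjusted p = 0.00486), APS3 (2.27, adjusted p = 0.00824) and BGLU15 (1.89, adjusted p = 0.000965). These calls held with any 1 array left out and in the 10 other settings run. GT72B1 rose in cambium and fell in procambium, from 10.28 and 8.79 to 7.65, 8.62 and 7.7. BGLU15 rose from 9.69, 9.59 and 9.47 to 10.32, 10.6 and 10.79 in cambium and fell from 9.81 and 9.87 to 9.08, 8.81 and 8.93 in procambium. APS3 fell in procambium from 9.96 and 8.88 to 8.5, 8.47 and 7.77, against a rise in cambium.

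A more negative response in cambium that held with any 1 array left out and in the 10 other settings was found for AT3G05730 (-9.16), TPS-CIN (-5.43), CYTC6A (-3.05) and ATG8F (-1.65, adjusted p = 0.00474). Differences of GH9B5 (3.68), ROXY1 (-3.73) and PDF2.1 (-3.62, adjusted p = 0.0103) held with any 1 array left out but not with values below log2 5 raised to 5 (adjusted p = 0.163, 1.0 and 0.256). ROXY1 was below log2 5 on every cambium and procambium array, so that its fitted difference has no measured size. ATG8F measured 11.38 and 11.02 without BAP and 11.7, 11.38 and 11.67 with it in procambium, where it did not pass the test.

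Other positive differences were lost without at least 1 array: BGLU28 (3.41), UGT72E3 (3.4), NET2D (2.97), UGT71B1 (2.43), AT5G44400 (2.37), ATMPK13 (2.34), UBC20 (1.76), ACLB-1 (1.76), TUB7 (1.55), ATERDJ3B (1.51) and CRT1b (1.15). So were negative ones: petG (-2.98), MRL7-L (-2.94), BAT1 (-2.88), LBD16 (-2.26), ndhI (-2.15), AT1G59740 (-2.09), RR16 (-1.92), TET3 (-1.78), ATG8D (-1.7), CLE41 (-1.67) and UGT76C2 (-1.51). With values below log2 5 raised to 5, BGLU28 (adjusted p = 0.172), UGT72E3 (0.454), MRL7-L (0.143), NET2D (0.184), LBD16 (0.762) and CLE41 (0.0518) were not called either. For ATERDJ3B the array was untreated procambium replicate 1 (adjusted p = 0.0601), for TET3 untreated procambium replicate 2 (0.0567), and for BAT1 untreated procambium replicate 2 or BAP cambium replicate 3 (up to 0.0701).

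Against transition cambium, the response of cambium was more positive for SBT1.3 (4.21) and GH9B5 (3.72) and more negative for AT3G05730 (-9.17), PDF2.1 (-4.88), TPS-CIN (-4.74) and PTL (-2.33). Of these 6, only AT3G05730 was called with any 1 array left out.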

How the results depend on the processing

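The count of 1962 called in cambium fell to 514 (312 higher, 202 lower) with a replicate block on the 6 cambium arrays and to 578 (320 higher, 258 lower) when a change beyond 0.5 on the log2 scale was required. It was 1622 with the replicate block on 16 arrays, and 1444 to 2392 under the other alternatives that used every cambium array. Differences from transition cambium numbered 35 and from procambium 889 with that block. Since the numbers did not pair the untreated and BAP arrays of cambium, and pairing across zones was not tested, these blocks are given as values only. With quantile normalization the calls split into 1023 higher and 1056 lower.

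Leaving out 1 array gave 1019 to 1797 calls in cambium, 21 to 87 differences from transition cambium and 741 to 1156 from procambium. Of 119 named genes called in cambium, 59 were called without any 1 array and 60 lost the call without at least 1. Over single genes and lists, 3352 alternative values were counted as unchanged, 642 no longer passed, 1 newly passed and 127 list counts moved. A gene counted as unchanged stayed on its side of the threshold, and a list count stayed within a set ratio of the main count. No change turned its sign where it was called in the main fit or the alternative. Sign changes of genes called in neither were not counted. Among the 119 named genes, 72 lost the call with the replicate block on 6 arrays, 39 without the filter on dim probe sets, 31 in the fit on the 6 cambium arrays, 16 with the block on 16 arrays, 15 with values below log2 5 raised to 5, 13 with all 18 arrays, and 4 or fewer in each of 6 other settings. Genes that a filter setting left out were not counted as lost in it. The causes were not tested. Signals below log2 5 carry little information on size, 3 arrays per group limit the precision, and no sequence was available to check shared probes.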

Other observations

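Lists of genes for protein folding in the ER and transport to the Golgi, ATP-citrate lyase, IQD and NET proteins and ESCRT-III, all added after results were seen, hold increases and decreases in cambium that the gene groups above leave out. Of the 22 genes kept in the ER list, 6 rose and 2 fell, beside 7.71% and 7.15% of all probe sets. The list includes SLY1 (AT4G24210) and ATCRT1 (AT5G56340), which were matched by name and do not belong to ER folding or transport. Neither was called. CRT1b, a calreticulin chaperone of the ER, rose by 1.14 on the log2 scale (SE 0.21, adjusted p = 0.0022). The DnaJ-type co-chaperones ATERDJ3B and ATERDJ2B rose by 1.25 and by 1.41 (adjusted p = 0.00328 and 0.00579). DER2.1, a derlin of ER-associated degradation, fell from 8.38, 8.96 and 8.2 to 7.01, 7.12 and 7.49 (adjusted p = 0.0104), while NAI2 is the largest increase of the list. The sorting reporter is itself an ER-localized protein in both groups, and its part in these values was not tested. The calls of Hsp70-2 (log2 change 1.46), whose protein is known from the cytosol, SEC22 (1.0) and DER2.2 (-0.76) were lost without at least 1 array (adjusted p up to 0.0599, 0.136 and 0.143), the last without any 1.

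ATP-citrate lyase makes cytosolic acetyl-CoA. Its subunit gene ACLB-1 rose from 8.5, 9.44 and 8.11 to 10.59, 10.53 and 10.72 (log2 change 1.93, adjusted p = 0.00191), and ACLA-1 by 0.68, lost without untreated replicate 1 or 3 or BAP replicate 2 or 3 (up to 0.0621). Of 10 IQD genes, which encode calmodulin-binding scaffolds at microtubules and membranes, IQD31 rose from 7.3, 8.03 and 6.69 to 9.33, 9.4 and 8.97 (adjusted p = 0.0111), lost without untreated replicate 3 (0.0504). IQD22 and IQD18 were each lost without 4 of the 6 arrays (up to 0.115 and 0.076), and without untreated replicate 3 none of the 3 was called. Of 7 NET genes, which encode actin-binding proteins, NET2D rose at least 1.97-fold and NET1A and NET1B by 1.11 and by 1.04, and none was called without untreated replicate 1 or BAP replicate 1. Of 11 ESCRT genes, VPS2.2 rose and ELC and SNF7.2 fell by 0.96 and by 0.97, both lost without untreated replicate 1 or 3 or BAP replicate 1 or 2 (up to 0.165 and 0.0893). The counts of this paragraph stand beside 7.71% higher and 7.15% lower over all probe sets.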
